A study of Mus musculus with 4 samples.

Results

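Genes of IGF, FGF, PDGF and VEGF signalling, with those of HGF and KIT, were read from the arrays of 4 mouse pancreatic cancer cell lines. The group held 38 genes chosen by name for their role as ligand, receptor or binding protein, of 19938 genes measured, and all 38 were found. The gene listed as Figf carried its current symbol Vegfd. Lines TPC18645 and TPC20223 came from TPC mice (labelled Ela-TGFa, Ptg1a+/CRE and Trp53fl/fl), and lines K459 and TCPA18654 from TPAC mice, which carried p65fl/fl in addition, so that the TGF-α transgene and the conditional p53 allele were shared by every line. The elastase promoter drives the transgene in acinar cells, and the study names the Cre driver p48-Cre. Each line had 1 untreated culture on 1 array, and neither the age of the mice nor whether a line was 1 clone is given in the sources used here.

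Values are log2 signals made by RMA, so a difference of 1 is a 2-fold difference in signal. RMA sets all arrays to nearly the same distribution, and no detection call came with the values. A gene was called dim when its mean over the 4 arrays lay at or below the 40th percentile of all genes (a log2 signal of 6.96), and 6 of the 38 genes were dim (Fgf2, Fgf10, Fgf21, Fgfbp1, Kdr and Hgf). A further 8 (Igfbp5, Fgf5, Fgf13, Fgfr2, Fgfr4, Pdgfd, Flt1 and Kit) were at or below that limit in at least 1 line, so the size of their differences from such a line is uncertain. Rela, which encodes p65, was at 11.12 (TPC18645) and 10.70 (TPC20223) against 10.82 (K459) and 11.10 (TCPA18654); its probes summarise the whole transcript and do not check the deletion. Signals of the lines are listed throughout with TPC18645 before TPC20223 and K459 before TCPA18654.

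These growth factors act through receptor tyrosine kinases. A ligand binds receptors at the cell surface, and paired receptors phosphorylate each other and feed the Ras and PI3K pathways. IGF binding proteins hold IGFs outside the cell and set how much reaches the receptor, and heparan sulfate binds many FGFs outside the cell. In the pancreas many FGF and PDGF signals run between stroma and epithelium, with ligand and receptor made by different cells, and a cell that makes both can stimulate itself.

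The labelled cell type, pancreatic tumour cells, was checked against epithelial markers. All 7 (Krt19, Krt8, Krt18, Krt7, Epcam, Cdh1 and Muc1) were lowest in TPC20223, where none lay above the 60th percentile of all genes on the array, while 6, 7 and 6 did in TPC18645, K459 and TCPA18654. The log2 of their mean signal was 6.88 in TPC20223 and 12.04, 12.64 and 12.19 in TPC18645, K459 and TCPA18654. Of 9 fibroblast markers, 5 lay above that level in TPC20223, 7 in K459, 3 in TPC18645 and 2 in TCPA18654, with a log2 mean signal of 10.75, 8.95, 8.53 and 8.48, and Lum and Fap were between 4.27 and 4.78 in every line. None of 6 endothelial markers (all between 5.13 and 7.40, with Tek at 7.15 in TPC20223 and 5.80 to 5.85 elsewhere) and none of the 2 Schwann cell markers measured lay above it in any line, and of 6 macrophage or leukocyte markers only Cd68 did, in TPC18645 and TCPA18654. Of 3 mesothelial markers, Msln lay above it in every line but TPC20223 and the other two in none. The part of these markers in the results that follow was not tested, and in cultured populations fewer cells of a type and less RNA per cell cannot be told apart.

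The lines did not pair by genotype label. TPC18645 and TCPA18654, labelled TPC and TPAC, differed by 1 log2 unit or more for 0.271% of all genes and for 1 of the 38. TPC18645 and K459 did so for 4.34% and 13 of the 38, and K459 and TCPA18654 for 3.87% and 10. Distances to TPC20223 were larger: 11.3% and 23 from TPC18645, 10.9% and 17 from K459, and 10.9% and 24 from TCPA18654.

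Most of the 38 genes differed widely between lines. They were chosen with earlier results of these data known, so their counts beside those of all genes are a description; 14 other Fgf genes measured, not among the 38, spanned 0.61 log2 units or less. Of them 29 spanned at least 1 log2 unit from the lowest to the highest line, where 15.9% of all genes did, and 15 spanned at least 2, where 5.53% did. Among all genes above the dim limit these shares were 21.2% and 7.48%. A span of 3 or more was found for 5 genes (Igfbp2, Igfbp5, Fgf7, Fgfr2 and Pdgfd), where 2.3% of all genes had one, and a span under 0.58 for 4 (Insr, Fgf21, Fgfrl1 and Hgf), where 67.3% had one. TPC20223 was the highest line for 21 of the 38, where it was for 28.1% of all genes, and the lowest for 12, where it was for 38.8%. It lay at least 1 log2 unit above the 3 other lines for 9 (Igfbp2, Fgf5, Fgf7, Fgf10, Fgf13, Fgfr1, Fgfr2, Pdgfc and Pdgfra), where 4.25% of all genes did (4.86% of those above the dim limit), and at least 2 above for 5 (Igfbp2, Fgf5, Fgf10, Fgfr2 and Pdgfra), where 1.49% did. It lay at least 1 below them for 3 (Igfbp3, Fgf1 and Kit), where 2.95% did. K459 stood 1 log2 unit above the others for Fgfr4 (0.988% of all genes) and below them for Fgf7 (0.331%). TPC18645 did so for none of the 38 (0.0251% of all genes above and 0.0401% below), nor did TCPA18654 (0.0201% and 0.0602%). Without TPC20223, 14 genes still spanned 1 log2 unit over the remaining lines, where 4.96% of all genes did, and 3 (Igfbp5, Fgf7 and Pdgfd) spanned 2, where 1.26% did. With 1 array per line these differences have no replicate check.

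**Figure D1:**
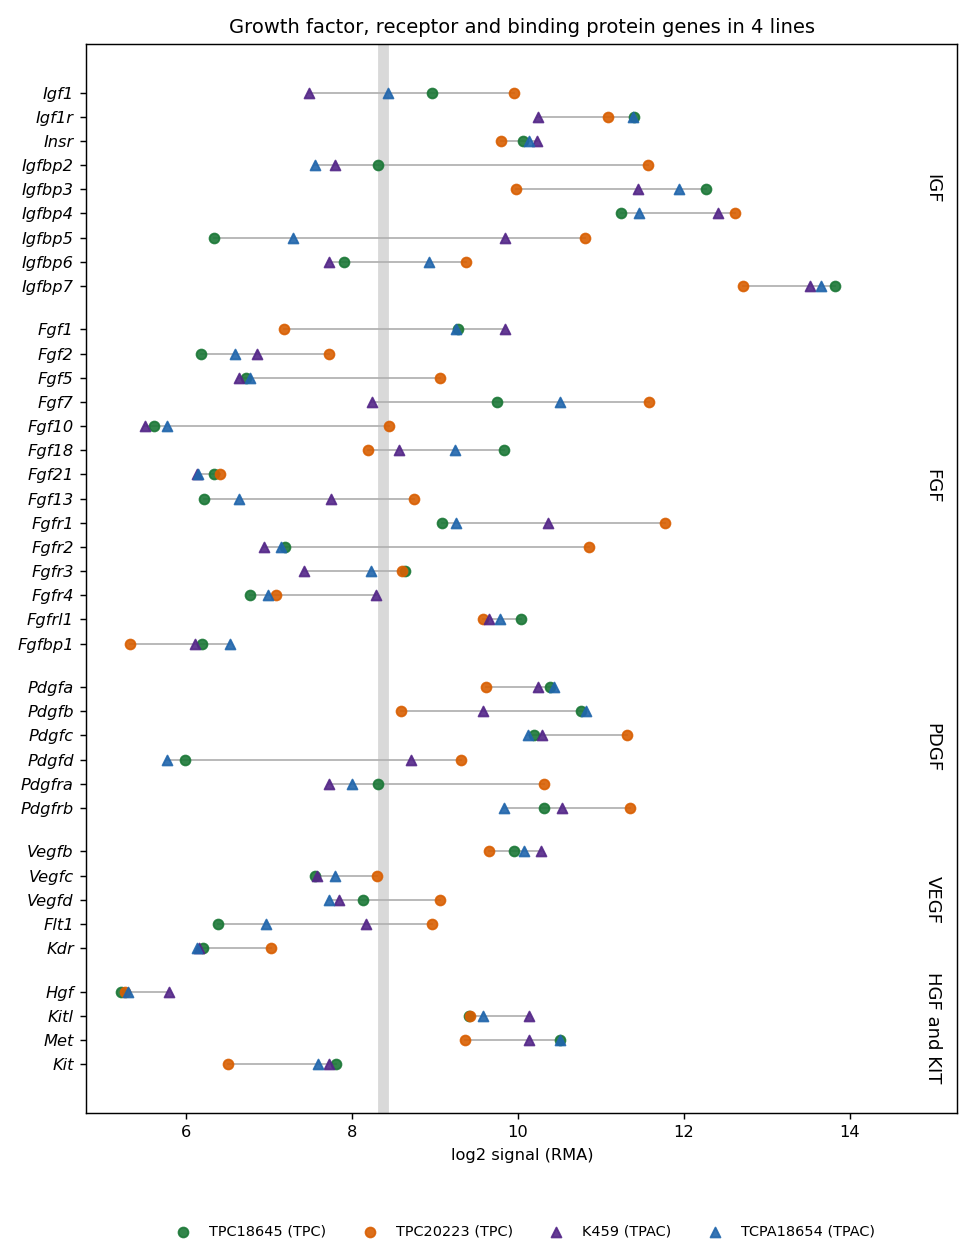
Log2 signal (x axis) of each of the 38 genes (rows, grouped by family) in TPC18645 and TPC20223 (circles) and in K459 and TCPA18654 (triangles); grey lines join the lowest and highest line, and the grey band is the 60th percentile of all genes on the 4 arrays, 8.33 to 8.44. TPC20223 lies at an end of the span for 33 of the 38 genes.

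**Figure D2:**
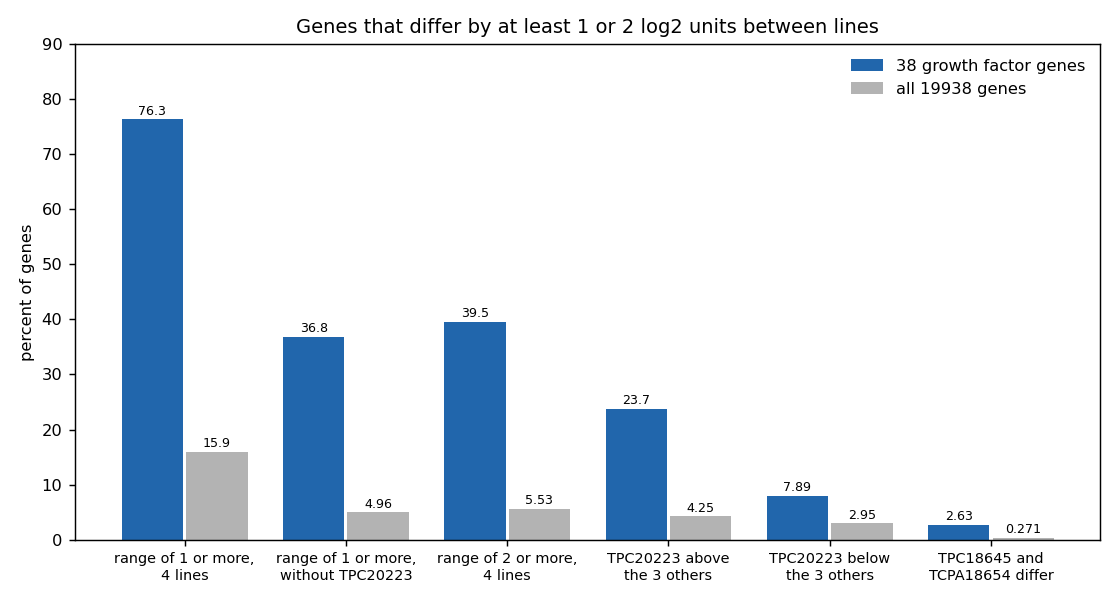
Percent of the 38 genes and of all 19938 genes (y axis) that meet each limit on the log2 signal: a range over the lines of at least 1 or 2, TPC20223 at least 1 above or below the 3 other lines, and TPC18645 and TCPA18654 at least 1 apart. The range limit of 1 was met by 76.3% of the 38 genes against 15.9% of all genes, and by 36.8% against 4.96% without TPC20223.

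In the IGF family the binding protein genes Igfbp5 and Igfbp2 had the widest spans over the lines. Igfbp2, an IGF binding protein of fetal and many tumour tissues, had log2 signals of 8.31 (TPC18645) and 11.57 (TPC20223) against 7.80 (K459) and 7.55 (TCPA18654). TPC20223 alone was high, by 9.58-fold over the next line, TPC18645. Igfbp5, which binds IGFs in the matrix, had the widest span of the 38 genes, 4.47 log2 units, with 6.34 (TPC18645) and 10.81 (TPC20223) against 9.84 (K459) and 7.29 (TCPA18654). Here a line of each genotype was high and a line of each genotype was low. Igfbp3, the main IGF carrier of serum, had the opposite order, with 12.27 (TPC18645) and 9.98 (TPC20223) against 11.45 (K459) and 11.94 (TCPA18654). Only TPC20223 was low, 1.47 log2 units under K459.

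Igfbp4, Igfbp6 and Igfbp7 spanned less, with ranges of 1.37, 1.66 and 1.11. Igfbp4, an inhibitor of IGF action, was at 12.62 and 12.41 in TPC20223 and K459 and at 11.25 and 11.46 in TPC18645 and TCPA18654, and so took the same order of lines as Igfbp5. Igfbp6, which prefers IGF2, was at 9.38 and 8.93 in TPC20223 and TCPA18654 against 7.90 and 7.72 in TPC18645 and K459. It was the only one of the 38 genes with 1 log2 unit or more between TPC18645 and TCPA18654 (1.03). Igfbp7, a secreted protein that binds IGFs weakly, lay between 12.71 in TPC20223 and 13.82 in TPC18645.

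Igf1, the ligand, had log2 signals of 8.97 (TPC18645) and 9.96 (TPC20223) against 7.48 (K459) and 8.44 (TCPA18654). Both TPC lines were above both TPAC lines. The receptor gene Igf1r was at 11.40, 11.09, 10.24 and 11.39 in the same order of lines, so K459 was lowest for ligand and receptor alike. Insr, the insulin receptor gene, was among the 4 genes of narrowest span (0.43), and its 2 transcript clusters gave the same order of the lowest and highest line, with 9.80 and 9.23 in TPC20223 and 10.23 and 9.54 in K459.

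Of the FGF ligand genes some were highest in TPC20223 and others lowest in it. Fgf7, a stromal ligand for the IIIb form of FGFR2, had log2 signals of 9.75 (TPC18645) and 11.58 (TPC20223) against 8.24 (K459) and 10.51 (TCPA18654). TPC20223 was highest and K459 lowest, each by more than 1 log2 unit. Fgf10, its close relative that directs the budding of the embryonic pancreas, was at 5.62, 8.45, 5.51 and 5.77 in the same order, and Fgf5, a ligand of FGFR1 and regulator of hair growth, at 6.72, 9.06, 6.64 and 6.77. For both, the 3 other lines lay within 0.26 log2 units of each other. Fgf2, a ligand stored in the matrix, was dim but again highest in TPC20223 (7.73, against 6.18 to 6.86).

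Fgf1, which can bind all FGF receptors, ran the other way, at 9.28 (TPC18645) and 7.18 (TPC20223) against 9.85 (K459) and 9.26 (TCPA18654). TPC20223 was low by 2.08 log2 units. Fgf18, a ligand of FGFR3 in cartilage and lung, was at 9.83, 8.19, 8.57 and 9.24, with TPC18645 and TCPA18654 above the other two. Fgf21, a hormone that needs the co-receptor β-klotho, lay between 6.13 and 6.41, and Fgf13, which stays inside the cell and acts on sodium channels, was at 6.22, 8.75, 7.75 and 6.64.

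Among the receptors Fgfr2 stood out, with log2 signals of 7.19 (TPC18645) and 10.86 (TPC20223) against 6.94 (K459) and 7.15 (TCPA18654). The 3 lines other than TPC20223 differed by at most 0.25, and TPC20223 was 12.7-fold above TPC18645. The splice forms of the receptor, which bind different FGFs, were not separated. Fgfr1 was at 9.09, 11.77, 10.37 and 9.25, so K459 lay between TPC20223 and the other lines. Fgfr3 was lowest in K459 (7.42, against 8.23 to 8.64), whereas Fgfr4 was highest there (8.29, against 6.77 to 7.09). Fgfrl1, which encodes a receptor without a kinase domain, spanned only 0.46, and Fgfbp1, whose product frees FGFs from the matrix, was dim and lowest in TPC20223 (5.33, against 6.11 to 6.53).

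In the PDGF family both receptor genes were highest in TPC20223, with the ligand genes divided. Pdgfra, the receptor for PDGF-A and PDGF-C, had log2 signals of 8.32 (TPC18645) and 10.32 (TPC20223) against 7.72 (K459) and 8.0 (TCPA18654), with TPC20223 high by 2.0. Pdgfrb was at 10.31, 11.35, 10.53 and 9.83, and Pdgfc at 10.20, 11.32, 10.29 and 10.12, both highest in TPC20223. Pdgfb, the ligand of both receptors, was lowest there, at 10.76, 8.59, 9.58 and 10.82, and Pdgfa followed with a smaller span (10.39, 9.62, 10.24 and 10.44). Pdgfd, a ligand of PDGFRβ, was at 5.99 (TPC18645) and 9.32 (TPC20223) against 8.71 (K459) and 5.77 (TCPA18654). As with Igfbp5, TPC20223 and K459 were high and the other lines low, here by at least 2.72 log2 units.

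Of the VEGF genes, Flt1, a receptor for VEGF-A, VEGF-B and PlGF, had the widest span, with log2 signals of 6.39 (TPC18645) and 8.97 (TPC20223) against 8.17 (K459) and 6.96 (TCPA18654). It shared its order of lines with Igfbp5 and Fgfr1. Kdr, the main receptor for VEGF-A in endothelium, was dim, between 6.13 and 6.20 in 3 lines and 7.02 in TPC20223. Vegfb lay between 9.65 and 10.28, and Vegfc and Vegfd, the lymphatic ligands, were highest in TPC20223 at 8.30 and 9.06, against 7.55 to 7.80 and 7.73 to 8.13. Of the endothelial markers Pecam1 and Cdh5 lay between 5.97 and 6.65 in every line, whereas Tek, like Flt1 and Kdr, was highest in TPC20223. The other markers did not share this: TPC20223 was lowest for Cdh5 (6.13), Tie1 (6.25) and Emcn (5.13), and neither highest nor lowest for Pecam1 and Vwf.

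The HGF and KIT genes spanned at most 1.30 log2 units. Met, the HGF receptor gene, had log2 signals of 10.51 (TPC18645) and 9.36 (TPC20223) against 10.13 (K459) and 10.51 (TCPA18654), whereas Hgf was dim, between 5.22 and 5.79. Kitl, the KIT ligand gene, was at 9.41, 9.43, 10.14 and 9.58, and Kit at 7.81, 6.51, 7.72 and 7.59. For both receptors TPC20223 was the lowest line.

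TPC20223 and K459, which carry different genotype labels, both lay at least 0.58 log2 units above TPC18645 and TCPA18654 for 6 genes (Igfbp4, Igfbp5, Fgf13, Fgfr1, Pdgfd and Flt1), where 2.07% of all genes did, and below them for Fgf18 and Pdgfb, where 1.66% did. TPC18645 and TCPA18654, which also differ in genotype label, were less than 0.58 apart for 33 of the 38 genes, where 98.3% of all genes were.

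Promoters are shown to set their sequences side by side. They cover the 5 genes at least 2 log2 units higher in TPC20223 than in the other lines. Some of the genes that differed between the same lines are added. RefSeq promoters (GRCm38.p6) were matched for 33 of the 38 genes by symbol; Insr, Fgf1, Fgfr1, Pdgfb and Pdgfrb had none in the table. Each sequence is the 250 bases before the listed start, 5′ to 3′ on the gene's strand, and the first start was taken where a gene had several (Igfbp2 has 2). Which start these cells use is not known from the arrays. Capitals mark matches on either strand to any of 6 motifs: the AP-1 motif TGANTCA, the GC box GGGCGG, the ZEB and Snail E-box CAGGTG, the cAMP response element TGACGTCA, the TATA box TATAAA and the NF-κB motif, the last included because p65 is an NF-κB subunit. Matches to 1 motif may overlap. The first set is Igfbp2 (chr1:72824230-72824479, plus strand), Fgfr2 (chr7:130266809-130267058, minus strand), Fgf10 (chr13:118714449-118714698, plus strand), Fgf5 (chr5:98253934-98254183, plus strand) and Pdgfra (chr5:75152001-75152250, plus strand), all high in TPC20223 alone.
Igfbp2: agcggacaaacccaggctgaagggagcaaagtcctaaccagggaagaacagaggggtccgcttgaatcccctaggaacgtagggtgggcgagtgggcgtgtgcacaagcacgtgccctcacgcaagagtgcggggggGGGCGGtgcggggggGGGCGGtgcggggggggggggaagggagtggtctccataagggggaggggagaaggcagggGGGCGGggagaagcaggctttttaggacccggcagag
Fgfr2: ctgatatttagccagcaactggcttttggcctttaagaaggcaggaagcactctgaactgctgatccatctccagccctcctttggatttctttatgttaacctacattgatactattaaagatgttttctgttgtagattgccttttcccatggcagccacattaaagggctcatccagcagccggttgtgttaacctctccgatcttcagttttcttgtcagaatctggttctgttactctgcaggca
Fgf10: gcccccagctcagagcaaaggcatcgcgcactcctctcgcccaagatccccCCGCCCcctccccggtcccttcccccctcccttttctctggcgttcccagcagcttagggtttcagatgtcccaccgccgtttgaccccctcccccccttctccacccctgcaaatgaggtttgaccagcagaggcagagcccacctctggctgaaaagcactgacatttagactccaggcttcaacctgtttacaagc
Fgf5: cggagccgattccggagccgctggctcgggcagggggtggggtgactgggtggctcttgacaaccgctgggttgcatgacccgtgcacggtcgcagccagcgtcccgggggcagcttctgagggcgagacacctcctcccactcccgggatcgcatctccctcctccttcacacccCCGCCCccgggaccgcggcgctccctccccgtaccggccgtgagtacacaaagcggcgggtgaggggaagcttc
Pdgfra: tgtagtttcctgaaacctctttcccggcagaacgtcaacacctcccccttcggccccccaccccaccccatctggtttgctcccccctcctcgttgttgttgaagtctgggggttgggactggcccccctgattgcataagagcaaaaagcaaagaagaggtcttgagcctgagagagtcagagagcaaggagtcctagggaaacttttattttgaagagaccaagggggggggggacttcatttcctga

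Igfbp2 held 3 GC boxes and Fgf5 and Fgf10 had 1 each, whereas Fgfr2 and Pdgfra matched none of the 6 motifs in this window. The 5 sequences had no motif in common. The next set is drawn from the genes high in TPC20223 and K459: Igfbp5 (chr1:72874866-72875115, minus strand), Pdgfd (chr9:6168236-6168485, plus strand) and Flt1 (chr5:147726012-147726261, minus strand). Igfbp4 and Fgf13, also high in both lines, have promoters that are not shown. Igfbp3 (chr11:7213924-7214173, minus strand), low in TPC20223, is set beside them, and Kit, also low there, is not shown. No link between a motif and a line was tested.
Igfbp5: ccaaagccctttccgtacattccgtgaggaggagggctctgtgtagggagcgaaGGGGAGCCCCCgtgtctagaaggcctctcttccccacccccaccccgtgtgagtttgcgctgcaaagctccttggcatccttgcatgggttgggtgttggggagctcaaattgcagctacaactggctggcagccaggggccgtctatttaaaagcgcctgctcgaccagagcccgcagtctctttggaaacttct
Pdgfd: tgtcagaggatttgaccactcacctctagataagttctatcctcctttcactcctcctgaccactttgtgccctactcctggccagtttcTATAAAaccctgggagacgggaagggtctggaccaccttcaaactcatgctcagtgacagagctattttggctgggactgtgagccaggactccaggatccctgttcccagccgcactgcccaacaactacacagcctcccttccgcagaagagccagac
Flt1: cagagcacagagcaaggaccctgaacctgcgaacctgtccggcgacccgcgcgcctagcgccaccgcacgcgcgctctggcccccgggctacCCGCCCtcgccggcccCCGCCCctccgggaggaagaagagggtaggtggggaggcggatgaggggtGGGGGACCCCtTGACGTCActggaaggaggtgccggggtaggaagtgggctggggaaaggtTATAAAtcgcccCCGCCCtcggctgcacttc
Igfbp3: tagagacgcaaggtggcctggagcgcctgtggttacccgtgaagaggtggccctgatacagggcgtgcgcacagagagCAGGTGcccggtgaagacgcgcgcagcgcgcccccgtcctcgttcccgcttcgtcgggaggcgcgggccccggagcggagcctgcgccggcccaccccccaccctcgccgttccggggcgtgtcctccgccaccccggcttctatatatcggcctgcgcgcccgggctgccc

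Flt1 held a cAMP response element 81 bases before the start, a TATA box at 31, an NF-κB motif at 92 and 3 GC boxes. Igfbp5 held 2 overlapping NF-κB matches, Pdgfd a TATA box 160 bases before the start, and Igfbp3 the E-box. Over the 33 genes the GC box was found in 19 (32.9% of 27025 promoters), the NF-κB motif in 7 (7.01%), the TATA box in 7 (13%), the AP-1 motif in 2 (6.87%), the E-box in 1 (17.1%) and the cAMP response element in 1 (1.62%). A match is a run of letters and not a binding site.

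Ligand and receptor were then set side by side within each line. A gene was counted as above the array level when its signal exceeded the 60th percentile of all genes on that array, a log2 signal of 8.33 to 8.44, so that 39.9% of all genes are above it in TPC18645 and TCPA18654 and 40% in TPC20223 and K459. Probes of different genes are not equally bright for the same RNA, and the level is a mark and not a detection limit. Of the 38 genes 14 lay above it in all 4 lines, 8 in none and 16 in 1 to 3 lines. That split was not counted over all genes, so it is a description. The number above the level was 28 in TPC20223, 19 in TPC18645, 18 in K459 and 19 in TCPA18654.

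Of 26 known pairs, 13 had both genes above the array level in TPC20223, 6 in TPC18645, 3 in K459 and 3 in TCPA18654. Of the 38 single genes 73.7% lay above it in TPC20223, and 50%, 47.4% and 50% in TPC18645, K459 and TCPA18654. Pair counts depend on these shares and several pairs share a gene, so the counts are a description. The pair of Pdgfb and Pdgfrb was the only one above in all 4 lines, 10 pairs were above in none, and 9 were above in TPC20223 alone. Those 9 were Fgf5 with Fgfr1, Fgf7 and Fgf10 with Fgfr2, Pdgfa, Pdgfb and Pdgfc with Pdgfra, Vegfa and Vegfb with Flt1, and Vegfd with Flt4. Whether the Fgfr2 signal came from a splice form that binds its listed ligands is not known from the arrays. In 8 of these 9 the receptor was below the level in each of the other lines, the exception being Fgfr1. Of the 9, 4 had a value close to the level: Pdgfra was at 8.32 in TPC18645 against a level of 8.44, which bears on 3 pairs, and Fgf10 at 8.45 in TPC20223 against 8.41. Pdgfa, Pdgfb and Pdgfc lay above the level in every line, and Pdgfra in TPC20223 alone.

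Fgf1 with Fgfr1 was the reverse: both lay above the level in TPC18645, K459 and TCPA18654, and TPC20223 had the receptor without the ligand. Igf1 with Igf1r lay above it in every line but K459, where Igf1 was at 7.48. In TCPA18654 Igf1 was close to the level, at 8.44 against 8.33. In K459 the pairs above the level were Fgf1 with Fgfr1, Pdgfb with Pdgfrb and Pdgfd with Pdgfrb. Met lay above it without Hgf, and Kitl without Kit, in every line. Pair counts in total depended on the level: 25 combinations of a pair and a line at the 60th percentile, 48 at the 50th and 9 at the 75th. At the 50th percentile 17 pairs were above in TPC20223 and 11, 11 and 9 in TPC18645, K459 and TCPA18654, with 6 in TPC20223 alone. At the 75th the counts were 5 in TPC20223, 1 in TPC18645, 2 in K459 and 1 in TCPA18654.

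**Figure D3:**
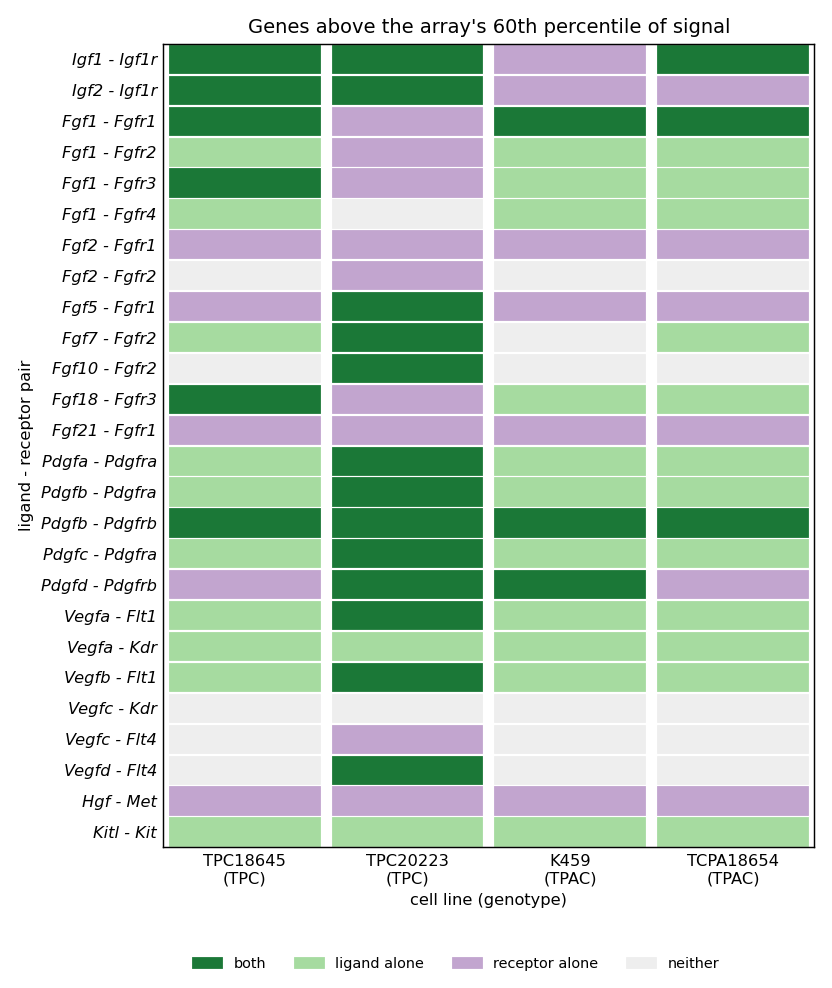
State of 26 ligand and receptor pairs (rows) in each line (columns): both genes, the ligand alone, the receptor alone or neither above the 60th percentile of all genes on that array. TPC20223 holds 13 pairs with both genes above and the other lines 6, 3 and 3. More single genes of the 38 also lay above the level in TPC20223, and several pairs share a gene.

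Genotypes were compared to ask what loss of RelA adds to TGF-α-driven cells. The genotype labels, on which every difference here rests, could not be checked from these signals: Rela was at 11.12 in TPC18645 and 11.10 in TCPA18654, and these lines of unlike label were the closest pair. No gene of the 38 passed limma's test of TPAC against TPC lines (smallest adjusted p = 0.989), and of all genes 0% passed. At an unadjusted p under 0.05, 0 of the 38 were higher and 1 was lower in TPAC, where 0.316% and 0.466% of all genes were. That gene was Igf1, whose mean was 7.96 ± 0.68 (SD, n = 2) over the TPAC lines, below the 9.46 ± 0.70 (SD, n = 2) of the TPC lines. Its log2 difference was -1.50 with a standard error of 0.52 (limma, unadjusted p = 0.0477, adjusted p = 0.989), and -2.0 to -1.01 whichever line was left out. The smallest two-sided p that an exact permutation of 2 lines against 2 allows is 0.333.

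Mean signals were lower in TPAC for 24 of the 38 genes, where 46.7% of all genes were, and higher for 13, where 52.2% were. Their median log2 difference was -0.23, against 0.01 over all genes, and that of Igfbp4 rounded to 0. By family, 11 of 14 FGF genes, 4 of 6 PDGF genes and 4 of 5 VEGF genes were lower, and 4 of 4 HGF and KIT genes were higher. All of these counts but that of PDGF genes rested on TPC20223. Without that line 7 of 14 FGF genes and 2 of 5 VEGF genes were lower, and 2 of 4 HGF and KIT genes were higher. The PDGF count stayed at 4 of 6 without TPC20223, while the median of that family went from -0.48 to -0.09. Over the 38 genes 20 were then lower and 18 higher with a median of -0.03, where 10483 of 19938 genes were lower with a median of -0.01. Without TPC18645, 23 were lower and 15 higher with a median of -0.74, where 8585 of 19938 genes were lower with a median of 0.04. Both TPAC lines lay below both TPC lines for 8 genes (Igf1, Igfbp2, Fgf21, Fgfr2, Fgfr3, Pdgfra, Vegfd and Kdr), where 13.3% of all genes did, and above them for 4 (Insr, Vegfb, Kitl and Hgf), where 13.7% did. In the other Insr cluster TCPA18654 (9.47) lay below TPC18645 (9.49). Fgfr3 differed by -0.80 with a standard error of 0.32 and Vegfb by 0.38 with one of 0.18. None of these passed the test.

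Apart from Igf1, every difference over 1 log2 unit in size was under 1 without TPC20223. Igfbp2 differed by -2.27 with a standard error of 1.20, and by -0.64 without TPC20223. For Fgfr2 the difference was -1.98 with a standard error of 1.35, and -0.14 without that line. Pdgfra went from -1.46 to -0.46, Fgf10 from -1.40 to 0.02, Fgf5 from -1.19 to -0.01, Fgf7 from -1.29 to -0.38 and Fgf1 from 1.32 to 0.28. Other differences passed 1 in size without that line: Igfbp5 went from -0.01 to 2.22, Pdgfd from -0.42 to 1.25 and Flt1 from -0.12 to 1.18. Of the 38 differences 15 changed sign without TPC20223, 5 without TCPA18654, 3 without K459 and 2 without TPC18645, and 18 kept their sign whichever line was left out. Igf1, Fgfr3 and Vegfb were among these 18; without K459 Fgfr3 differed by -0.40, and without TPC20223 Vegfb differed by 0.23.

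With TPC18645 left out, the TPAC lines were compared with TPC20223 alone, and limma's spread then took that line to vary like the TPAC lines. At an unadjusted p under 0.05, 11 of the 38 genes were lower and 7 higher in TPAC, where 9.24% and 7.6% of all genes were. The log2 difference, TPAC lines minus TPC20223, was -3.82 for Fgfr2, -3.90 for Igfbp2, -2.36 for Fgf5 and -2.81 for Fgf10. In the other direction, Fgf1 differed by 2.38 and Igfbp3 by 1.72. None passed an adjusted p of 0.05.

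**Figure D4:**
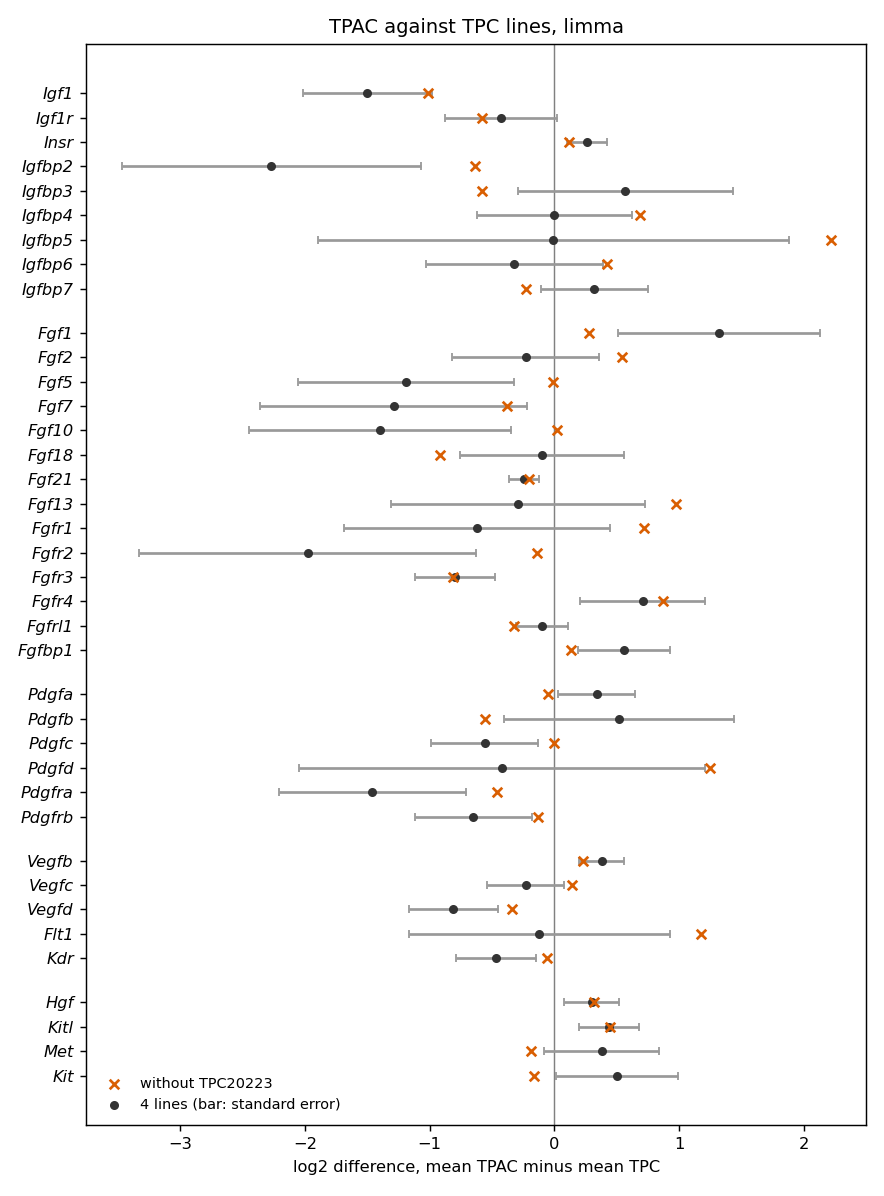
Log2 difference of each of the 38 genes, mean of the TPAC lines minus mean of the TPC lines (x axis): dots use the 4 lines with limma's standard error as bars, and crosses leave out TPC20223. Igfbp2 goes from -2.27 to -0.64 and Fgfr2 from -1.98 to -0.14 without that line.

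Other genes of these pathways were read from lists written beside the 38. None of 17 measured IGF and insulin genes, 24 FGF genes, 12 PDGF and VEGF genes, 13 HGF and KIT genes or 15 shared adaptor genes passed limma's test, and at an unadjusted p under 0.05 only 1 was lower, the IGF gene Igf2. TPC20223 lay at least 1 log2 unit above the other lines for 4 of the 17 IGF genes and 3 of the 12 PDGF and VEGF genes, for 1 of the FGF genes and for none of the HGF, KIT and adaptor genes, where 4.25% of all genes did. It lay at least 1 below them for 1 PDGF or VEGF gene and 2 HGF or KIT genes, where 2.95% of all genes did, and for none in the other lists. Grb10, an adaptor that restrains insulin and IGF receptors, had log2 signals of 6.28 (TPC18645) and 12.37 (TPC20223) against 9.22 (K459) and 6.32 (TCPA18654), and Igf2bp3, an RNA-binding protein of fetal cells, 6.35, 10.27, 9.55 and 7.54. Both took the order of lines seen for Igfbp5.

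Igf2, a ligand of IGF1R, was at 9.18 (TPC18645) and 10.41 (TPC20223) against 7.84 (K459) and 7.44 (TCPA18654), above the array level in both TPC lines and below it in both TPAC lines (limma, log2 difference -2.15, unadjusted p = 0.0134, adjusted p = 0.989). Flrt3 and Flrt2, membrane proteins that bind FGF receptors, had spans of 2.34 and 1.73, and Flrt3 was highest in K459 (10.23). Nrp2, a co-receptor for VEGFs and semaphorins, was high in TPC20223 (11.37, against 8.58 to 9.24), as was Flt4, the receptor for VEGF-C and VEGF-D (8.96, against 7.30 to 7.78), whereas Vegfa lay between 9.76 and 10.35. Grb7, an adaptor of ErbB receptors, was low in TPC20223 (6.34, against 8.75 to 10.28), and so was Spint2, an inhibitor of the proteases that activate HGF (6.75, against 10.16 to 11.06). Spint1, a related inhibitor, was high in K459 (10.08, against 7.73 to 7.97). The adaptors, which all the receptors share, lay above the array level in every line for 15 of 15 genes, and Pik3cb and Sos2 spanned most, with 1.61 and 1.24.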

How the data were processed

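RNA of 4 cultured lines was measured on Affymetrix Mouse Gene 1.0 ST arrays. The authors deposited log2 signals processed by RMA in Expression Console 1.4, as the submitters' notes list; filters and array batches were not stated in the sources used here. Of 28941 transcript clusters, 21789 carried 1 gene symbol, and the cluster of highest mean signal stood for its gene, which gave 19938 genes with no filter on dim ones. Symbols were matched to RefSeq by Entrez number. TPAC and TPC lines were compared over all genes in limma 3.58.1 under R 4.3.3 (linear fit with moderated variance, both directions) with Benjamini-Hochberg adjustment. A call needed an adjusted p up to 0.05 together with a log2 difference of at least 0.58 in size, the limits the study set for TPAC against KPC cells. The fit was also run on simulated data, and its power to find changes at the spread of these lines is not stated. Separate mice were not stated as the source of the lines, so a p-value here measures no more than line-to-line spread. The number of arrays limits the precision.

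The 38 genes, the pathway lists, pairs and motifs were chosen with earlier results of these data known. Named genes were the 38, the partners that complete a pair and the 2 genes of widest range in each pathway list; marker genes were named besides. The alternatives were: medians set equal between arrays, loess between arrays (cyclic), averaging a gene's clusters, dropping dim genes, a variance trend with intensity, the methods' test, other fold and percentile limits, and each line left out.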

Additional observations from a re-analysis of the deposited data

How the results depend on the processing

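No gene was called in TPAC against TPC under any of the 10 alternatives. Of all genes 63 were higher and 93 lower at an unadjusted p under 0.05 by limma, against 298 and 230 by the methods' test. That test was a t-test of each gene with pooled variance. Under it, genes that passed an adjusted p of 0.05 all fell short of the log2 limit of 0.58. Among the 38 genes its smallest adjusted p was 0.973. The number of the 38 genes at an unadjusted p under 0.05 was 1 (Igf1) in the 4 lines, 0 with cyclic loess and 0 to 18 with a line left out, the 18 without TPC18645, 4 without TCPA18654 and 0 without K459. The 13 genes set apart in 1 line by 1 log2 unit were 7 at a limit of 1.5 and 29 at 0.58. All genes were not counted at those other limits. Genes spanning 1 log2 unit numbered 14 to 28 with a line left out, chosen after seeing the data as an alternative, with the 14 without TPC20223. Combinations of a pair and a line above the array level were 25, with 48 at the 50th percentile, 9 at the 75th and, an alternative chosen after seeing the data, 12 without TPC20223. The counts by family without TPC20223 or TPC18645 were likewise chosen after seeing the data. Leaving Igfbp4 aside, whose difference was 0, 177 of 179 differences of single genes kept their sign under the other alternatives; Igfbp5 was at -0.01 and came to 0.01 with a common median per array and with cyclic loess. With each line left out in turn the TPAC minus TPC difference ran from -1.0 to 0.14 for Igf1r, -0.58 to 1.72 for Igfbp3, -2.24 to 2.22 for Igfbp5, -1.05 to 0.42 for Igfbp6, -0.23 to 0.88 for Igfbp7, -1.0 to 0.54 for Fgf2, -2.81 to 0.02 for Fgf10, -0.92 to 0.72 for Fgf18, -1.55 to 0.98 for Fgf13, -1.96 to 0.72 for Fgfr1, -0.32 to 0.14 for Fgfrl1, -0.05 to 0.72 for Pdgfa, -0.56 to 1.61 for Pdgfb, -2.08 to 1.25 for Pdgfd, -0.61 to 0.14 for Vegfc, -1.41 to 1.18 for Flt1, -0.19 to 0.96 for Met and -0.16 to 1.15 for Kit. The cause was not tested. No paired analysis was possible because the labels number no replicates. With no detection call, differences of the 6 dim genes, and of the 8 with a line at or below the dim limit, are not exact in size.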
